A study of Mus musculus with 18 samples.

Results

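Hepcidin, iron and metal handling genes were followed in mouse liver across 3 diets. The members were all probe sets of the array that the platform annotation pairs with exactly 1 of the symbols Hamp, Hamp2, Bmp6, Id1, Tfrc, Trf, Slc40a1, Fth1, Mt1 and Mt2. A probe set is a group of short probes that reads 1 transcript, or several alike. There were 19 such probe sets of 9 genes, among 45101 on the array. For transferrin (Trf) the array holds 1 probe set, which is also paired with Srprb, so no value is given for it. Of the 19 probe sets, 3 are quality controls that read Tfrc and 1 of Hamp2 was too dim to test, which left 15.

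The mice were male C57BL/6J, an inbred strain, bought at an age of 5 weeks, kept for 1 week on a stock diet and then for 20 weeks on 1 of 3 diets. Western plus quercetin mice ate a Western-style diet with 0.05% quercetin, a plant flavonol. Western mice ate that diet without quercetin, with 39.9% of its energy from fat (20% butter and 1% soy oil), 34.0% of its energy from sucrose and 0.15% cholesterol. Control mice ate AIN93G, a purified rodent diet. Each group had 6 arrays, each with the liver RNA of 1 mouse, and the mice are numbered as in their labels. Mice lived 3 to a cage and the cages are not given, so the p-values measure the spread between mice that may share a cage.

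Hepcidin, the product of Hamp, is a peptide hormone of hepatocytes that binds ferroportin (Slc40a1), the cell's iron exporter, and causes its breakdown, so that less iron enters the blood. Hepatocytes raise Hamp when BMP6 from neighbouring endothelial cells signals through SMAD proteins, and when interleukin 6 signals through STAT3. Cells short of iron keep more mRNA of the transferrin receptor (Tfrc), and ferritin (Fth1 is its heavy chain) stores iron. Metallothioneins (Mt1, Mt2) bind zinc and copper and are transcribed more when metals or glucocorticoids rise.

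Hamp and Hamp2 are paralogs that lie near each other on chromosome 7. The bases before their starts are printed because 1 paralog passed the test below, and because the known control elements of Hamp lie there. That the other did not pass is not by itself an unequal change. Tested directly below, Hamp2 minus Hamp missed the threshold in Western against control and passed in Western plus quercetin against control. Whether the letters bear on either gene's level was not tested. Each run is the 250 bases upstream of the transcript start from RefSeq (GRCm38.p6, minus strand, read 5′ to 3′), at chr7:30944030-30944279 for Hamp and chr7:30924182-30924431 for Hamp2. Capitals mark GGCGCC, the core of the BMP-responsive element, and TTCTTGGAA, the form of the STAT site found in Hamp.
Hamp: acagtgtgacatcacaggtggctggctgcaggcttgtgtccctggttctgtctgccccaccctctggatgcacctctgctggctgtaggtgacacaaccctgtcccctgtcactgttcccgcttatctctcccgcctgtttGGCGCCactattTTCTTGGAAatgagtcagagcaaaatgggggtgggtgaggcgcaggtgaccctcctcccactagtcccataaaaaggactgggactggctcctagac
Hamp2: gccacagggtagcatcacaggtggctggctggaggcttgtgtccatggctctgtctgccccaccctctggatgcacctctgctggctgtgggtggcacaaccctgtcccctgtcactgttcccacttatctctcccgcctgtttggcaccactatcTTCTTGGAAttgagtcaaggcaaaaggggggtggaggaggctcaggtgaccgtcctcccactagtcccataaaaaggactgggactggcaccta

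Over 247 aligned bases the 2 runs were identical at 227 (91.9%). GGCGCC began at position 142 of Hamp, counted from 1 at the 5′ end of the printed run. The aligned letters of Hamp2 differ there by 1 base, G145A. TTCTTGGAA was present in both, at position 154 of Hamp and 157 of Hamp2, and does not overlap the GGCGCC. Both strands were searched. Of all 32851 RefSeq windows of 300 bases around a gene's start, 11.9% held GGCGCC and 0.417% held TTCTTGGAA. Windows were at hand for 7 of the 10 genes, 9 windows in all, and outside the hepcidin genes only 1 of the 2 windows of Tfrc held GGCGCC. A match describes letters and not a bound site.

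Levels are log2 of the deposited intensity plus 16 after quantile normalization, and a difference of 1 is a doubling of that sum. A call is an adjusted p under 0.05 from limma, a linear model fitted to all 33778 probe sets that were bright enough, with Benjamini-Hochberg adjustment over all of them. Control arrays 4 and 5 differed far less than any other pair (SD of the log2 ratio over bright probe sets 0.0466, against 0.158 for the next closest of 153 pairs) and were counted as 1 sample, control 4-5, so the control group has 5 samples. The labelled tissue was borne out by 9 hepatocyte markers, whose mean log2 level lay between 12.16 and 12.40 in Western plus quercetin mice, 12.13 and 12.22 in Western mice, and 12.29 and 12.43 in control mice. Array medians of the deposited values ran from 16.6 to 23.1 in Western plus quercetin mice, 16.2 to 20.7 in Western mice and 12.7 to 18 in control mice.

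The first comparison is Western against control, where the groups also differed in a sign of RNA quality given below. Hamp2 fell 3.47-fold in Western mice, and it was the 1 member called among 15. Over all probe sets tested, 4.35% were called in either direction, 979 higher and 489 lower. With array medians centred in place of quantile normalization the split was 1503 and 288, and on the values as deposited 5591 and 145, with Hamp2 called in each. The other 14 member probe sets did not pass, and the median change over the 15 was -0.01, equal to that over all probe sets tested at 2 decimals. The 95% interval of the change reached beyond 1 log2 unit for both Hamp probe sets, for Mt2 and for the brighter Mt1 probe set, and stayed inside it for the other members that did not pass.

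Hamp2 encodes a second hepcidin, whose overproduction in transgenic mice did not give the anaemia that Hamp gave. In Western mice 1 to 6, its log2 levels were 9.58, 8.29, 9.01, 9.004, 9.46 and 9.16. In control samples 1, 2, 3, 4-5 and 6 they were 10.85, 11.51, 10.71, 10.90 and 10.44. The groups did not overlap: the highest Western mouse lay below the lowest control sample. Groups set apart, in either direction, made up 4.72% of all probe sets tested. The difference was -1.80 ± 0.33 (SE; 95% interval -2.49 to -1.11; adjusted p 0.00395, limma), the third most negative change of the 33778.

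On the deposited scale, Hamp2 had a median intensity of 582 in Western mice (276 to 865) and 1628 in control samples (1138 to 2935). In whole liver, fewer cells of a type and less RNA per cell cannot be told apart. The probe set, 1436643_x_at, carries the suffix that its maker gives to probes that may also match related transcripts, and which share of its signal comes from Hamp was not tested. The other Hamp2 probe set, 1456289_at, had deposited intensities of 0.634 to 16.2 over all arrays and was not tested.

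Leaving out any 1 sample kept the call of Hamp2 in Western against control, with changes of -1.91 to -1.64 and adjusted p of 0.000750 to 0.0146. In mice numbered 1 to 3 alone the change was -2.06 and did not pass (adjusted p 0.0624, limma), and in those numbered 4 to 6 alone it was -1.47 (adjusted p 0.0216, limma). The labels do not say whether the numbers mark a batch. As a sign of RNA quality, the log2 ratio of the 3′ to the 5′ actin control probe set was 0.544 ± 0.110 in Western mice and 0.687 ± 0.0558 in control samples (SD; exact permutation test, two-sided, p 0.0325). The same ratio for the transferrin receptor controls was 1.60 ± 0.357 in Western mice and 2.15 ± 0.970 in control samples (exact permutation p 0.214). The 5′ probe set of this ratio had a deposited intensity of 0.587 in control 6, against 4.91 to 8.52 in the other control arrays. With the actin ratio in the fit the change of Hamp2 was -1.44 with an adjusted p of 0.0998, and 207 probe sets were called in place of 1468.

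**Figure D1:**
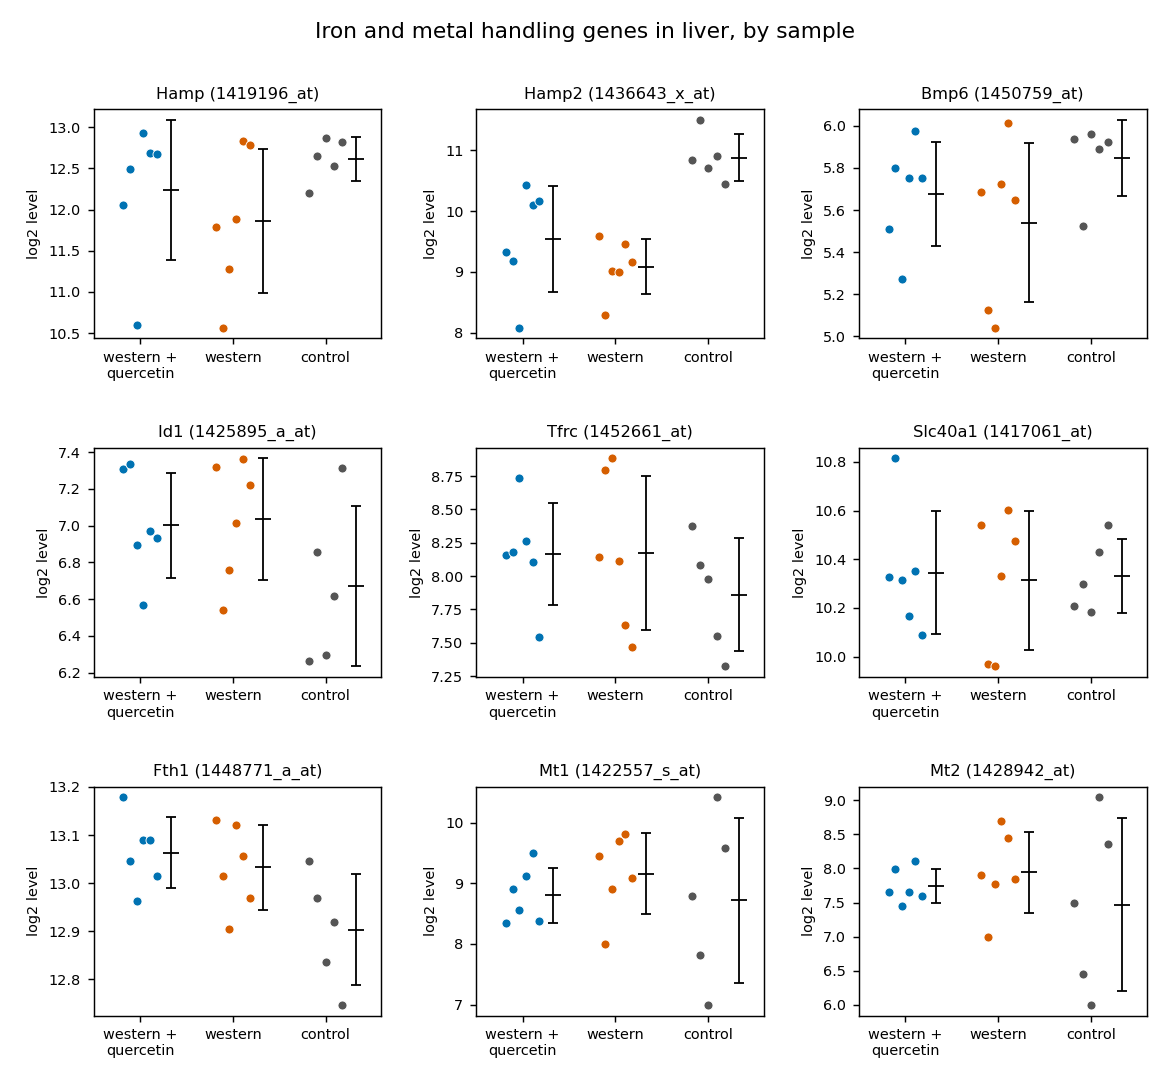
Log2 level of the brightest probe set of each of the 9 genes (vertical axes, log2 intensity plus 16 after quantile normalization; each panel has its own range that does not start at 0) in Western plus quercetin, Western and control samples. Points are samples, and the line beside them is the mean with its SD (n = 6, 6 and 5). At these normalized levels, Hamp2 is the panel in which all 5 control samples lie above all other mice.

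Hamp itself was far brighter than Hamp2, at the 99.7th percentile of all probe sets, though levels of different probe sets are not on 1 scale. In Western mice 1 to 6 its brightest probe set, 1419196_at, had log2 levels of 11.79, 10.57, 11.28, 11.89, 12.84 and 12.78. In control samples it had 12.20, 12.65, 12.87, 12.54 and 12.83. Western mice 2 and 3 lay well below the control range and Western mice 1 and 4 just below it, while Western mice 5 and 6 lay within it, so the groups overlapped.

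The Hamp difference was -0.76 ± 0.39 (SE; interval -1.58 to 0.06; adjusted p 0.315, limma). The second probe set, 1419197_x_at, gave -0.92 ± 0.43 (adjusted p 0.268, limma). Both followed each other closely from mouse to mouse (Pearson r 0.995 of deviations from group means, 17 samples). The Hamp difference was -1.36 in mice 1 to 3 and -0.18 in mice 4 to 6. The contrast between these 2 sets of mice did not pass (interaction p 0.0658 unadjusted, adjusted p 0.953, limma). Within the Western group the SD was 0.873, against 0.267 in the control group (with the actin ratio as a covariate the Hamp difference was -0.10, adjusted p 0.952, limma). The pooled spread of Hamp exceeded that of 99.8% of probe sets tested.

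Whether the paralogs moved unequally was tested on the difference Hamp2 minus Hamp within each array. It averaged -2.77 ± 0.62 in Western mice and -1.74 ± 0.53 in control samples (SD, n = 6 and 5), a difference of -1.04 with all 6 Western mice below the control mean. The exact permutation test gave p 0.0281, and 0.0844 after Benjamini-Hochberg adjustment over 6 tests, so this missed the threshold. With control 4 and 5 as 2 samples, the adjusted p was 0.0390 (exact permutation test). Those arrays are nearly alike, so that setting overstates the number of control samples and is not taken as a pass.

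**Figure D2:**
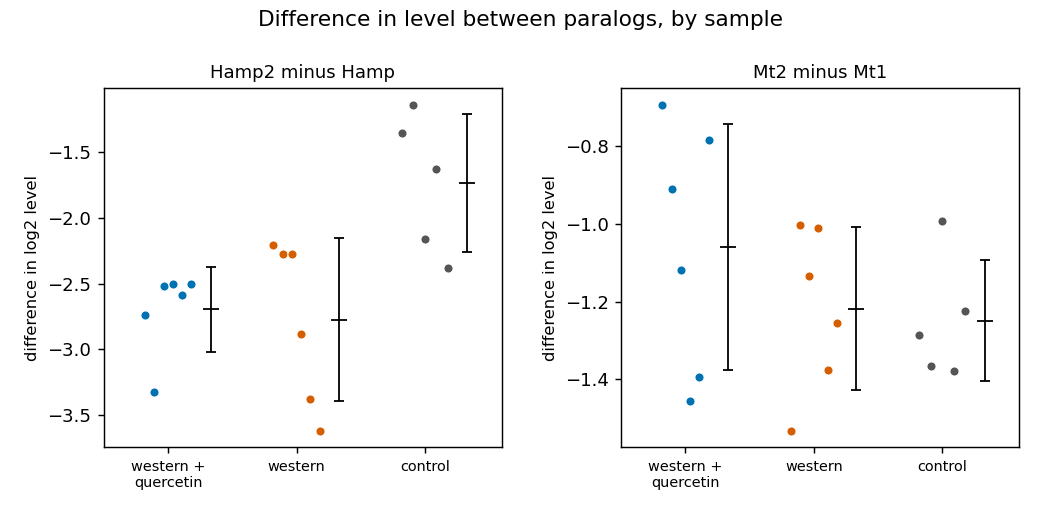
Log2 level of Hamp2 minus that of Hamp (left) and of Mt2 minus that of Mt1 (right), vertical axes not starting at 0, by sample in Western plus quercetin, Western and control groups, with the mean and SD beside the points. Hamp2 minus Hamp averages -2.70, -2.77 and -1.74 in the 3 groups, and Mt2 minus Mt1 -1.06, -1.22 and -1.25.

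The upstream ligand Bmp6 and the SMAD target Id1 did not pass. Bmp6 had log2 levels of 5.04 to 6.01 in Western mice (median 5.67), against 5.94, 5.52, 5.96, 5.89 and 5.92 in control samples. Its difference was -0.31 ± 0.16 (SE; adjusted p 0.324, limma), and Western mice 2 and 3, the lowest in Hamp, were the lowest here too, at 5.12 and 5.04. Id1 encodes an inhibitor of helix-loop-helix factors. It had 6.54 to 7.36 in Western mice (median 7.12) and 6.27, 6.85, 6.29, 6.62 and 7.31 in control samples, a difference of 0.37 ± 0.19 (adjusted p 0.323, limma). On the values as deposited, without quantile normalization, Id1 was called at 0.65 (adjusted p 0.0322, limma), where the median of all probe sets was itself 0.18.

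Of the iron uptake, export and storage members, none passed. Tfrc is read by 3 tested probe sets, of which 1452661_at was the brightest. It had 8.14, 8.80, 8.88, 8.11, 7.63 and 7.47 in Western mice, against 8.38, 8.08, 7.98, 7.55 and 7.32 in control samples, a difference of 0.31 ± 0.25 (adjusted p 0.574, limma). The other 2 gave 0.28 and -0.01. With the 3 quality control probe sets kept in the fit, an alternative chosen after seeing the data, they gave 0.17, 0.22 and 0.18, with adjusted p of 0.401 or more (limma).

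Slc40a1 did not pass, with differences of -0.02 ± 0.14 (SE; interval -0.31 to 0.27) for 1417061_at and -0.06 ± 0.16 (interval -0.39 to 0.27) for 1448566_at. Its levels were 9.96 to 10.60 in Western mice and 10.18 to 10.54 in control samples, so the groups overlapped throughout. Fth1 had the smallest spread of the members, with pooled SDs of 0.0928 for 1448771_a_at and 0.0776 for 1427021_s_at, where the median over all probe sets was 0.209. It had 12.91 to 13.13 in Western mice and 13.05, 12.97, 12.84, 12.92 and 12.75 in control samples. The difference was 0.13 ± 0.08 (interval -0.03 to 0.29), with all 6 Western mice above the control mean. The second Fth1 probe set gave 0.08 ± 0.07, and the probe sets had an r of -0.162 among mice (17 samples).

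The metallothioneins varied widely among control samples. Mt1 (1422557_s_at) had log2 levels of 9.44, 7.995, 8.90, 9.70, 9.82 and 9.09 in Western mice, against 8.79, 7.82, 6.99, 10.42 and 9.58 in control samples. Mt2 had 7.91, 6.99, 7.76, 8.69, 8.44 and 7.84 in Western mice, against 7.50, 6.46, 6.00, 9.04 and 8.35 in control samples. Control 3 was lowest and control 4-5 highest of all samples in both genes. The control SD of 1.36 for Mt1 exceeded that of nearly all probe sets, whose median control SD was 0.200. The differences were 0.44 ± 0.46 for Mt1 (adjusted p 0.680, limma) and 0.47 ± 0.41 for Mt2 (adjusted p 0.606, limma).

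For Mt1 the difference was 0.91 in mice 1 to 3 and -0.46 in mice 4 to 6. For Mt2 it was 0.90 and -0.37. Neither contrast between the number sets passed (interaction p 0.0471 for Mt1 and 0.0239 for Mt2 unadjusted, adjusted p 0.931 and 0.905, limma). Mt2 minus Mt1 was -1.22 ± 0.21 in Western mice and -1.25 ± 0.16 in control samples (exact permutation p 0.814). Which share of the Mt1 signal comes from Mt2 was not tested. The genes listed as glucocorticoid-responsive, beside the metallothioneins, had a median change of -0.50 in Western mice over 12 genes: 0 were higher and 2 lower. Read in the same way, 5.86% of all 14970 genes were called, with a median of -0.01. Hsd11b1, which regenerates active glucocorticoid, fell by 0.73 ± 0.12 (adjusted p 0.00161, limma). Tat, a tyrosine-degrading enzyme, fell by 0.79 ± 0.21 (adjusted p 0.0345, limma), a call that leaving out any 1 of control 1, 2, 3 or 6 or Western 1, 4, 5 or 6 ended, at adjusted p of 0.0624 to 0.0807. With the actin ratio in the fit Tat had -0.87 (adjusted p 0.130, limma).

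**Figure D3:**
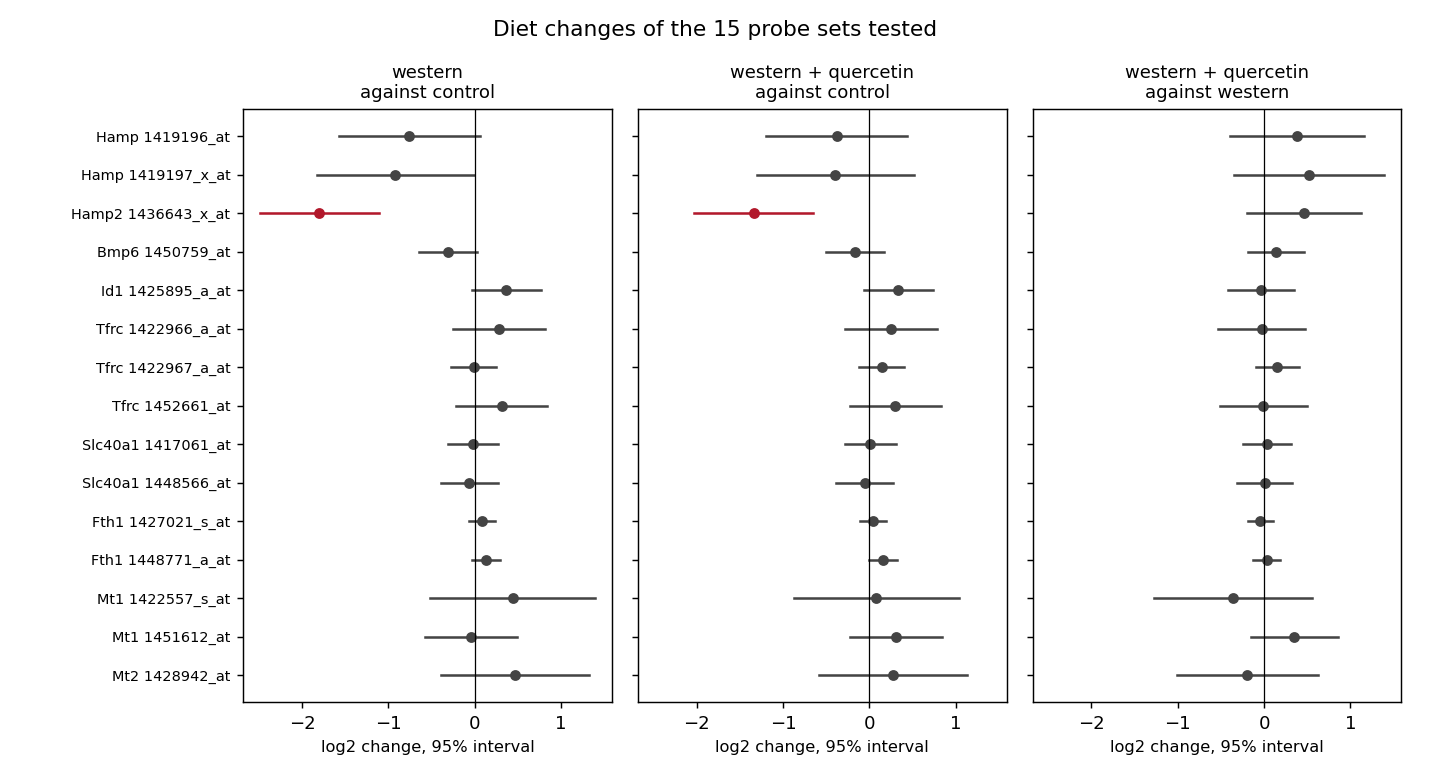
Log2 change (horizontal axes) with its 95% interval for the 15 member probe sets tested, in Western against control, Western plus quercetin against control, and Western plus quercetin against Western. Intervals in red are those with an adjusted p under 0.05, which are Hamp2 in the left and middle panels, at -1.80 and -1.34.

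The second comparison, Western plus quercetin against Western, asks what quercetin did within the Western-style diet. None of the 15 member probe sets was called, none had an unadjusted p under 0.05, and all adjusted p were 1.00 (limma). Over all probe sets tested 0% were called, with 1105 at an unadjusted p under 0.05. The median change was 0.03 over the members and -0.00 over all probe sets. Hamp2 had log2 levels of 9.32, 9.17, 8.08, 10.43, 10.10 and 10.18 in Western plus quercetin mice 1 to 6, set against the Western values above.

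Mice 4, 5 and 6 on quercetin lay above every Western mouse in Hamp2, and mice 1 to 3 lay among or below them. The difference was 0.46 ± 0.31 (SE; interval -0.20 to 1.12). It was -0.11 in mice 1 to 3 and 1.03 in mice 4 to 6 (interaction p 0.0266 unadjusted, adjusted p 0.958, limma). Hamp had 12.06, 12.49, 10.60, 12.92, 12.69 and 12.68 on quercetin, a difference of 0.38 ± 0.37 (interval -0.40 to 1.16), with 5 of 6 mice above the Western mean. Mouse 3 on quercetin was the lowest of its group in both hepcidin genes. Without it the Hamp difference was 0.71 and without Western mouse 2 it was 0.12, and neither passed (limma, adjusted p of 0.999 or more).

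The second Hamp probe set, 1419197_x_at, had the highest difference of the 15, at 0.52 ± 0.41 (interval -0.35 to 1.39). The probe sets of the other genes had differences of -0.36 (Mt1, 1422557_s_at) to 0.35 (Mt1, 1451612_at), so that the 2 Mt1 probe sets took opposite signs. Slc40a1 had 10.09 to 10.81 in Western plus quercetin mice, a difference of 0.03 ± 0.13 (interval -0.25 to 0.31). In mice 1 to 3 that difference was 0.33 and in mice 4 to 6 -0.27 (interaction p 0.0199 unadjusted, adjusted p 0.958, limma). Tfrc (1452661_at) differed by -0.01 ± 0.24 and Bmp6 by 0.14 ± 0.15. Mt1 ranged from 8.35 to 9.51 on quercetin and Mt2 from 7.45 to 8.11, within the Western ranges of 7.995 to 9.82 and 6.99 to 8.69.

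The third comparison, Western plus quercetin against control, shares its samples with the other comparisons. Hamp2 fell 2.52-fold, by 1.34 ± 0.33 on the log2 scale (SE; interval -2.03 to -0.65; adjusted p 0.0332, limma), the 1 call among 15 members, where 2.85% of all probe sets were called, 629 higher and 333 lower (774 and 161 with array medians centred, 5265 and 97 as deposited). All 6 Western plus quercetin mice lay below all 5 control samples, the closest being quercetin mouse 4 at 10.43 and control 6 at 10.44. On the deposited scale the groups overlapped, at 250 to 1558 in Western plus quercetin mice and 1138 to 2935 in control samples. At the normalized levels, groups did not overlap, in either direction, in 3.30% of all probe sets tested. The change was -2.16 in mice 1 to 3 and -0.44 in mice 4 to 6 (interaction p 0.00293 unadjusted, adjusted p 0.375, limma).

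Leaving out any 1 of 6 samples ended this call, with adjusted p of 0.0577 without control 1, 0.0943 without control 2, 0.0583 without control 3, 0.0585 without control 4-5, 0.0662 without quercetin mouse 1 and 0.0805 without quercetin mouse 2 (limma). The change itself stayed between -1.51 and -1.04 when any 1 of the 17 samples was left out. The actin ratio was 0.554 ± 0.0783 in Western plus quercetin mice and 0.687 ± 0.0558 in control samples (exact permutation p 0.0195), and with it as a covariate the change was -0.9996 (adjusted p 0.270, limma). The transferrin receptor ratio was 1.48 ± 0.101 in Western plus quercetin mice and 2.15 ± 0.970 in control samples, control 6 included (exact permutation p 0.0195). Fitted on these 2 groups alone, Hamp2 had an adjusted p of 0.0722 (limma).

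Hamp differed by -0.38 ± 0.39 and did not pass (adjusted p 0.704, limma). Without quercetin mouse 3 it differed by -0.05, and with the actin ratio as a covariate by 0.24 (adjusted p 0.966 and 0.865, limma). Hamp2 minus Hamp averaged -2.70 ± 0.32 in Western plus quercetin mice and -1.74 ± 0.53 in control samples, a difference of -0.96. The exact permutation p of 0.00217 is the smallest that 6 against 5 samples can give, and was 0.0130 after adjustment over the 6 tests. On the values as deposited the difference was -0.82 and the adjusted p 0.104. Between Western plus quercetin and Western mice that gap differed by 0.08 (exact permutation p 0.788).

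Other members did not pass against control. Id1 differed by 0.33 ± 0.19 (adjusted p 0.423, limma) and was called on the values as deposited, at 0.59 (adjusted p 0.0484, limma), where all probe sets had a median of 0.19. Fth1 (1448771_a_at) differed by 0.16 ± 0.08 (adjusted p 0.321, limma), with all 6 quercetin mice above the control mean. Mt2 differed by 0.27 ± 0.41, made up of 1.04 in mice 1 to 3 and -0.91 in mice 4 to 6 (interaction p 0.00154 unadjusted, adjusted p 0.327, limma).

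Some of the members varied together among mice of the same diet. After removal of group means, Hamp and Bmp6 had a Pearson r of 0.775 (Spearman rho 0.654, 17 samples), and Hamp and Tfrc -0.776 (rho -0.684). These are descriptions without a p, over arrays that share a normalization. The lowest mice carry part of them: Western mice 2 and 3 and quercetin mouse 3 had the 3 lowest Hamp, the 3 lowest Bmp6 and the 3 highest Tfrc levels. Without quercetin mouse 3 and Western mouse 2, r was 0.649 for Bmp6 and -0.721 for Tfrc. In the 9 samples numbered 1 to 3 r was 0.685 and -0.764, and in the 8 others 0.470 and -0.307.

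Hamp and Hamp2 had r 0.743, which was 0.376 without the same 2 mice. Mt1 and Mt2 had r 0.963 (rho 0.931), 0.920 without controls 3 and 4-5, and 0.950 and 0.928 in the 2 number sets. The Mt1 probe set used here, 1422557_s_at, had an r of 0.698 with the other Mt1 probe set, 1451612_at. Which share of its signal comes from Mt2 was not tested. Id1 and Slc40a1 had r 0.793 (rho 0.831), 0.802 and 0.771 in the number sets. Of all 36 pairs of member genes, 28 had a positive r and 8 a negative one, with a median of 0.262. Tfrc was in all of the negative pairs but that of Id1 and Fth1.

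**Figure D4:**
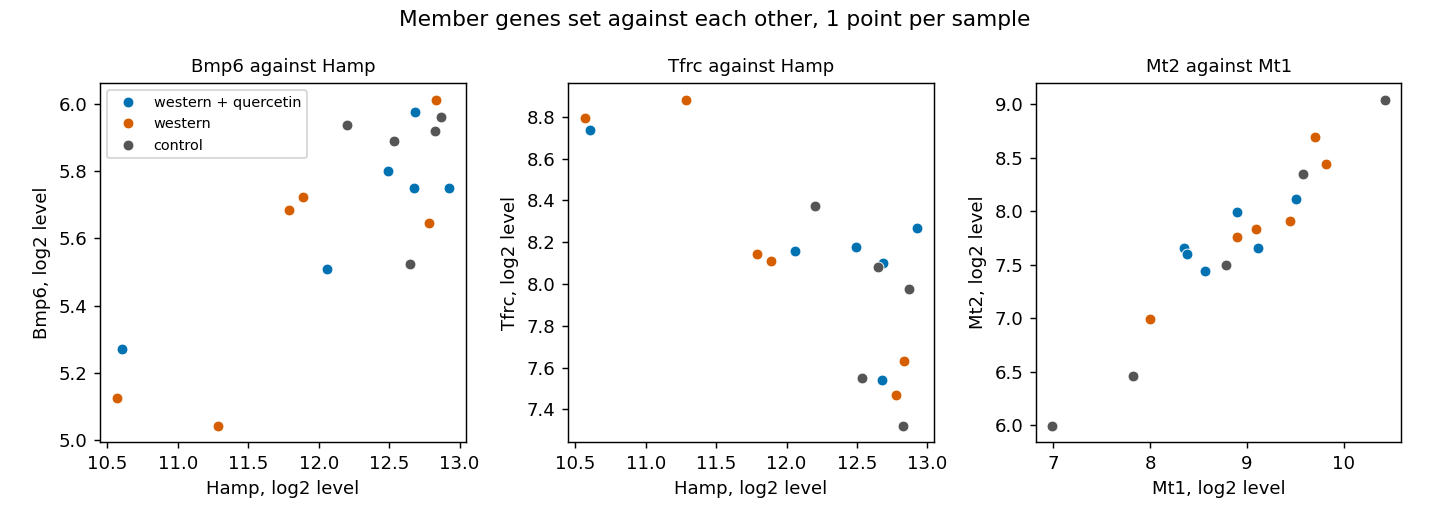
Log2 levels of Bmp6 against Hamp, Tfrc against Hamp and Mt2 against Mt1, 1 point per sample, coloured by group (axes do not start at 0). The 2 Western mice and 1 Western plus quercetin mouse with Hamp of 11.28 or less have Bmp6 of 5.27 or less and Tfrc of 8.74 or more, and Mt1 and Mt2 lie along 1 line (r 0.963).

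Among 14969 other genes, those most like Hamp by r of deviations over 17 samples were Apoa5 (0.886), an apolipoprotein that acts on triglyceride clearance, Blvra (0.858), a biliverdin reductase, Celf2 (0.852), Aldh9a1 (0.838) and Pde7b (0.833). Hamp2 was most like Chmp5 (0.822), Plin5 (0.820), a lipid droplet protein, Fam53b (0.820), Nudt19 (0.816) and Krit1 (0.816). For Mt1 they were Mt2 (0.963), Aldoc (0.898), Tdrp (0.865), Pnpla2 (0.865), a triglyceride lipase, and Wipf3 (0.862). For Tfrc they were Cul2 (0.949), Isg20 (0.891), Slc10a2 (0.875), an intestinal bile acid transporter, Ccnjl (0.875) and Napa (0.872).

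The rest of the pathway was read from lists of genes, each gene by its brightest probe set. On this reading 5.86% of 14970 genes were called in Western against control (586 higher and 291 lower), 3.71% in Western plus quercetin against control and 0% in Western plus quercetin against Western. The lists share some genes. Of 25 genes of BMP and SMAD control of hepcidin, 0 were called in any comparison, and their median change in Western mice was 0.01. Hfe, a partner of the transferrin receptors, had 0.16 ± 0.07 and Tfr2, the iron-sensing receptor of hepatocytes, had -0.19 ± 0.09 in Western against control (adjusted p 0.252 and 0.275, limma). Id3, a second SMAD target, had 0.40 ± 0.20 (adjusted p 0.314, limma).

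Of 28 genes of the interleukin 6 and STAT3 acute phase response, 5 were higher and 0 lower in Western against control, with a median of 0.01. Lcn2, lipocalin 2, which binds bacterial iron carriers, had a median log2 level of 9.72 in Western mice (9.14 to 11.41) and 7.39 in control samples (6.82 to 8.72), a rise of 2.36 ± 0.35 (adjusted p 0.000964, limma). Orm3 and Orm2, acid glycoproteins of plasma, rose by 1.76 ± 0.23 and 1.54 ± 0.28 (adjusted p 0.000295 and 0.00383, limma). Steap4, a metalloreductase, rose by 0.52 ± 0.10 (adjusted p 0.00520, limma). With the actin ratio in the fit Orm2 had 1.22 and Steap4 0.43, and neither passed (adjusted p 0.0990 and 0.104, limma). The fifth, serum amyloid Saa1, is outside the naming rule and was chosen after its value was seen; its rise of 0.98 was ended by leaving out any 1 of 9 samples (controls 2, 3, 4-5 and 6, Western 1, 3, 4 and 5, quercetin 3; 0.77 to 1.04, adjusted p 0.0505 to 0.107, limma), and by the actin covariate (0.70, adjusted p 0.342, limma).

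Of 21 genes of iron uptake, transport and release, 2 were higher and 2 lower. Lcn2 is 1 of them. Flvcr1, a transporter linked to heme export, rose by 0.71 ± 0.11 (adjusted p 0.000893, limma), with 6.54 to 6.95 in Western mice and 5.86 to 6.27 in control samples. Cd163, the haemoglobin scavenger receptor of macrophages, fell by 1.15 ± 0.21 (adjusted p 0.00403, limma), with 5.55 to 6.53 in Western mice and 6.85 to 7.50 in control samples. Slc39a8, a zinc and iron importer, fell by 0.46 ± 0.11 (adjusted p 0.0200, limma), which leaving out control 1, control 2 or Western 5 ended, at changes of -0.43 to -0.41 and adjusted p of 0.0520 to 0.0610. It was also not called on the values as deposited or with array medians centred. With the actin ratio in the fit Cd163 had -1.07 and Slc39a8 -0.37, and neither passed (adjusted p 0.0743 and 0.213, limma).

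Cd163 is also a macrophage marker, and of the 16 macrophage and Kupffer cell markers 6 were higher and 1, Cd163 itself, was lower. Their mean log2 level was 7.80 to 8.35 in Western mice, 7.65 to 9.01 in Western plus quercetin mice and 7.42 to 7.72 in control samples. Of 10 stellate cell markers 6 were higher and 0 lower, with mean levels of 7.70 to 8.27 in Western mice and 7.26 to 7.49 in control samples. Of 10 endothelial markers, the cells that make Bmp6, 1 was higher. Of 9 hepatocyte markers, the cells that make hepcidin, 1, Tat, was lower and the median change was -0.14. Their mean log2 level was 12.13 to 12.22 in Western mice and 12.29 to 12.43 in control samples, without overlap. In Western plus quercetin mice it was 12.16 to 12.40. The part of these cell types in the changes above was not tested.

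Of 15 genes of heme synthesis and breakdown, 2 were higher and 0 lower. Blvrb, a biliverdin reductase, rose by 0.49 ± 0.07 (adjusted p 0.00102, limma) and Slc48a1, a heme transporter, by 0.52 ± 0.11 (adjusted p 0.0135, limma). With the actin ratio in the fit Slc48a1 had 0.34 and did not pass (adjusted p 0.230, limma). Blvrb levels were 10.35 to 10.58 in Western mice and 9.84 to 10.11 in control samples. Alas2, the first enzyme of heme synthesis in red cells, had -0.45 ± 0.16 (adjusted p 0.128, limma) and Ppox, a later enzyme, -0.24 (adjusted p 0.148, limma). Of 6 erythroid markers, Alas2 among them, 0 were called, and their mean level was 5.70 to 6.06 in Western mice and 5.87 to 6.25 in control samples. Of the markers of cholangiocytes, T cells, B cells and neutrophils 0 were called either. Of 7 genes of ferritin and the iron regulatory proteins and 13 of iron-sulfur cluster assembly, 0 were called in any comparison.

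Of 23 zinc and metallothionein genes, 1 was higher and 1, Slc39a8, lower. Slc39a4, the zinc importer ZIP4, rose 2.77-fold in Western mice, by 1.47 ± 0.17 (adjusted p 8.01e-05, limma). Its log2 levels were 8.02 to 8.65 in Western mice (median 8.42) and 6.58 to 7.42 in control samples (median 6.88), so the groups lay well apart, and the call held in all 33 alternatives run. Slc39a9 (0.29, adjusted p 0.0504, limma) and Slc39a14 (-0.29, adjusted p 0.0669, limma), also zinc importers, just missed. Of 12 copper genes, Atp7a, a copper-exporting pump, rose by 0.30 ± 0.08 (adjusted p 0.0406, limma); leaving out any 1 of 9 samples (controls 2, 3, 4-5 and 6, Western 1, 3, 4 and 5, quercetin 5) ended the call at adjusted p of 0.0511 to 0.0900, as did the actin covariate (0.29, adjusted p 0.204, limma). Its partner Atox1, which hands copper over, had 0.25 (adjusted p 0.0891, limma) and Atp7b -0.28 (adjusted p 0.0958, limma). Of the list genes called in Western against control, each but Slc39a4 lost its call in mice numbered 1 to 3 alone, in mice 4 to 6 alone, or in both.

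**Figure D5:**
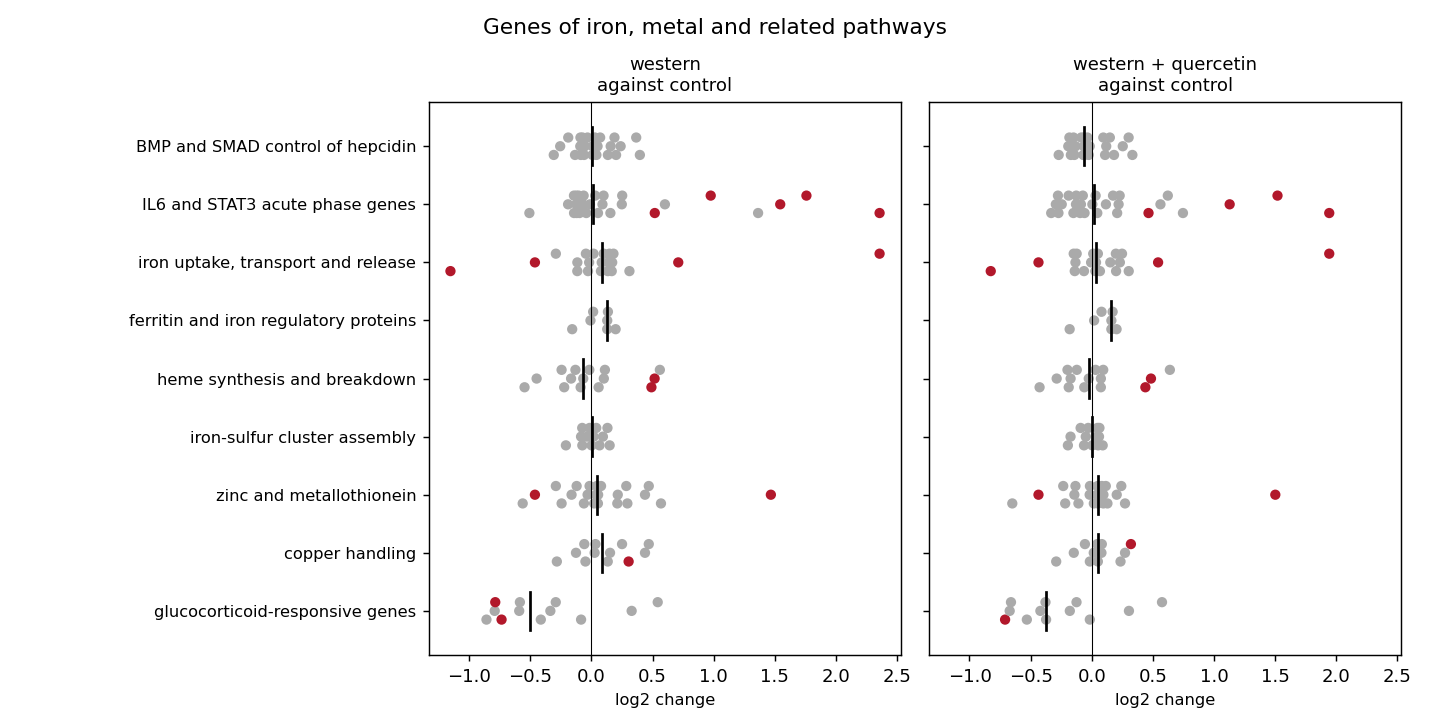
Log2 change of each gene (brightest probe set, horizontal axes) in 9 lists, in Western against control (left) and Western plus quercetin against control (right); red points have an adjusted p under 0.05 and black bars are list medians. Most medians lie near 0, from -0.07 to 0.13 on the left, while the glucocorticoid-responsive genes have -0.50 and -0.38, and Lcn2 lies farthest right at 2.36 and 1.94.

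Against control, Western plus quercetin mice had 4 of 28 acute phase genes higher. Of 21 iron transport genes 2 were higher and 2 lower, and of 15 heme genes 2 were higher. Of 23 zinc genes 1 was higher and 1 lower. Of 12 copper genes 1 was higher, and of 12 glucocorticoid-responsive genes 1 was lower. Read in the same way, 3.71% of all 14970 genes were called, 357 higher and 199 lower. Slc39a4 rose 2.83-fold (1.502 ± 0.17, adjusted p 0.000112, limma), with 7.87 to 8.78 in Western plus quercetin mice. Lcn2 rose by 1.94 ± 0.35, Flvcr1 by 0.54 ± 0.11 and Blvrb by 0.44 ± 0.07 (adjusted p 0.00551, 0.00866 and 0.00324, limma). With the actin ratio in the fit Lcn2 had 1.46 (adjusted p 0.108, limma) and did not pass, nor did Steap4, Orm2, Cd163, Slc39a8, Slc48a1, Atp7a and Hsd11b1 (adjusted p 0.0566 to 0.287, limma). Each list gene called here, Slc39a4 included, lost its call in mice 1 to 3 alone, in mice 4 to 6 alone, or in both. Hmox1, heme oxygenase, had 0.64 ± 0.23 and did not pass (adjusted p 0.164, limma). Leaving out 1 sample ended 5 of these calls, at adjusted p of 0.0515 to 0.104 (limma). For Slc48a1 (0.48) it was any 1 of controls 1, 2 and 6 or quercetin mice 2, 3 and 5, and for Slc39a8 (-0.44) those or quercetin mouse 4. For Orm2 (1.13) it was any 1 of controls 2, 3, 4-5 and 6 or quercetin mice 1, 2, 3 and 5. For Cd163 (-0.83) it was any 1 of controls 1, 3 and 4-5, Western mice 4 and 5 or quercetin mice 1 to 5. For Atp7a (0.32) it was any 1 of controls 2, 3, 4-5 and 6, Western mice 1, 4 and 5 or quercetin mice 1, 2 and 5. In Western plus quercetin against Western 0 genes of any list were called; the smallest unadjusted p was that of Slc39a5, a zinc importer (-0.47, p 0.0374, adjusted p 1.00, limma).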

How the data were processed

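The deposited table holds intensity values on a linear scale, 1 per probe set and array, for 18 arrays; how the authors summarized and scaled them is not given in the sources used here. Per the labels, RNA was column-purified and amplified in 1 cycle with biotin labelling. Of the probe sets, 45037 are not controls; these were converted to log2(value + 16), quantile normalized, and kept where the mean reached the 25th percentile (log2 4.40). Every fold is a ratio of value + 16, which understates changes of dim genes. limma 3.58.1 in R 4.3.3 was fitted with 1 mean per group to 17 samples, with eBayes defaults and two-sided tests, and was tested on simulated data. The number of arrays limits the precision: the median 95% interval reached 0.259 to either side against control and 0.247 within the Western-style diet. Symbols of 34741 probe sets with 1 symbol were looked up by gene identifier in RefSeq (GRCm38.p6), and all 34741 were the same. Members, gene lists and tests were chosen with earlier results of these data known. Of each list, the 4 genes with the smallest p in Western against control and the 3 in each other comparison were open to be named. Alternatives changed the scaling, pseudocount, filter, probe set choice, samples, covariates and blocks. The diet of AIN93G plus quercetin was not analysed here. Promoters were aligned with Biopython 1.88, and figures drawn with matplotlib 3.10.9 in Python 3.11.15.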

Additional observations from a re-analysis of the deposited data

Results flagged for a closer look

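Among 57 groups of samples looked at, 1 for each of the 19 member probe sets in each diet group, 5 held a sample far from the others by a test for a single outlying value; about 1 in 20 groups is flagged by chance. Hamp was low in Western plus quercetin mouse 3 by both probe sets, at a log2 level of 10.60 with the next mouse at 12.06, and at 10.16 with the next at 11.98. Bmp6 was low in control 2, at 5.52 with the next at 5.89. The 5′ quality control probe set of Tfrc was low in control 6, at 4.07 with the next at 4.46. Slc40a1 was high in Western plus quercetin mouse 2, at 10.81 with the next at 10.35.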

How the results depend on the processing

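No result named here took the opposite direction while called. With the values as deposited, 5736 probe sets were called in Western against control (5591 higher and 145 lower, against 979 and 489) and 5362 in Western plus quercetin against control (5265 higher and 97 lower, against 629 and 333), and 2 members in each; the median of all probe sets was then 0.18 and 0.19. With array medians centred the first split was 1503 higher and 288 lower. In Western against control, mice numbered 1 to 3 alone gave 64 calls and 0 members, mice 4 to 6 alone 218, and the actin ratio as a covariate 207 and 0 members. In Western plus quercetin against control, a pseudocount of 1 gave 0 members, the 2 groups alone 556 and 0 members, mice 1 to 3 alone 261, mice 4 to 6 alone 24 and 0 members, and the actin covariate 149 and 0 members. Leaving out 1 sample gave 847 (without Western 4) to 1800 (without Western 2) calls in the first comparison and 554 to 1267, with 0 to 1 members, in the third. For Western plus quercetin against Western every alternative gave 0 calls, save 1 without control 3. Apart from the fewer samples in some of these settings, the cause was not tested. The 18 same-numbered pairs of samples correlated at -0.222 to 0.301 in their deviations (median 0.108, 12 over 0.1), against medians of 0.0484 for other numbers within the sets 1 to 3 and 4 to 6 and -0.0795 across the sets (1 of 48 over 0.1). The highest correlation was with the same number in 21 of 34 cases, a hint of pairing from the data; since not every pair was over 0.1 and the labels give no shared source, the numbers were not taken to pair the mice. With the replicate number as a block, 1515 and 972 probe sets and 1 member each were called, while Atp7a, Saa1 and Tat in the first comparison and Atp7a and Cd163 in the third were not (adjusted p 0.0567 to 0.0802, limma). The number of mice, the RNA quality ratio and the unknown scaling of the deposited values each limit these results.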
